A study of Homo sapiens with 5 samples.

Results

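Catenins are the proteins that tie cadherins, the adhesion receptors of cell-cell contacts, to the actin cytoskeleton. This report describes 6 of their genes, of 60651 in the deposited tables, chosen by name: CTNNB1 (beta-catenin), JUP (plakoglobin, also called gamma-catenin), CTNNA1 (alpha-catenin), CTNND1 (p120-catenin), CDH1 (E-cadherin) and CTNNBIP1 (ICAT, an inhibitor that binds beta-catenin). Each was matched to a single Ensembl identifier, and 5 of the 6 had enough reads to be tested. The libraries were poly(A) RNA from COLO 320DM, a human colorectal adenocarcinoma line, transfected with small interfering RNAs (siRNAs). The 3 libraries labelled siIDT, sino4 and siSMPLT were each taken to carry a different siRNA against USP17, because only siL2 and siNT, the other 2, are named as controls that silence nothing. No dose or time of transfection was used here. The study concerns USP17, a deubiquitinase, and beta-catenin in colorectal cancer.

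In epithelial cells the cytoplasmic tail of a classical cadherin binds either beta-catenin or plakoglobin, and these in turn bind alpha-catenin, which holds actin. The p120-catenin protein binds nearer the membrane and keeps the cadherin from being taken up and degraded. Beta-catenin that is not held at junctions is marked for destruction by the APC and Axin complex, or enters the nucleus and activates Wnt target genes with TCF/LEF factors, a step that ICAT blocks. Plakoglobin also serves in desmosomes.

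Reads in genes numbered 31704821 to 32259474 in the USP17 siRNA libraries and 34320214 to 36276143 in the control siRNA libraries. The share of reads on no gene's own strand was 7.05% to 7.49% with USP17 siRNA and 6.37% to 6.58% with control siRNA, and its part in the results was not tested. None of the 30 genes of the USP17L family, which encodes USP17, had a read in any of the 5 libraries, so the knockdown itself could not be checked. Each siRNA had 1 library, and the labels name no separate cultures. The p-values below therefore cover the spread between these 5 libraries alone, which may be technical. In bulk RNA, fewer cells of a kind and less RNA per cell cannot be told apart. Of the colon epithelial markers, CDX2 stood at 1467 to 1846 TPM (transcripts scaled to gene length and library size) over the 5 libraries, KRT8 at 90.3 to 109 TPM and EPCAM at 2.16 to 3.05 TPM, while KRT19, VIL1, CDX1 and LGALS4 stayed under 0.3 TPM and MUC2 was at 0. Of 6 such markers tested, CDX2 was lower (log2 fold change -0.31; adjusted p = 0.0162, edgeR) and GUCY2C higher (1.47; adjusted p = 0.0389, edgeR), with a median log2 fold change of 0.021. The summed TPM of the 11 on the list was 1630 to 1690 with USP17 siRNA and 1950 to 2030 with control siRNA. Most of that sum was CDX2 alone, at 1467 to 1515 TPM with USP17 siRNA and 1751 to 1846 TPM with control siRNA. The part of these differences in the results below was not tested.

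The members whose 3' untranslated region (3' UTR) holds a sequence picked in an earlier analysis of these libraries are shown first, because the results for CTNNB1 and CTNNA1 are read beside them. The motif ATCACTC was searched on the transcript strand, as were the motif TCACTCA, with which it shares the 6 bases TCACTC, and the motif GATCATC. They were picked for how their carriers moved in these libraries, and the sequences of the siRNAs were not used here. The windows below are transcript sequence from GENCODE release 29 (GRCh38), written 5′ to 3′, with the match in capitals.
CTNNB1, chr3:41240110-41240134, plus strand: taattcataATCACTCtaattaatt
CTNNA1, first match, chr5:138934139-138934163, plus strand: cactgttcgTCACTCAaatgaattt
CTNNA1, second match, chr5:138934573-138934597, plus strand: gggacaaacTCACTCAgtaaaacat
CDH1, chr16:68833715-68833739, plus strand: ttttttcccATCACTCtttacatgg
JUP, the 6 shared bases alone, chr17:41754871-41754894, minus strand: gcccaccccTCACTCcccagggag
The match lies at base 777 of 1111 in the CTNNB1 3' UTR, at bases 325 and 759 of 1210 in CTNNA1, at base 225 of 2049 in CDH1 and at base 859 of 1140 in JUP, counted from the first base after the stop codon in the transcript with the longest 3' UTR. CTNNB1 carries it in 4 of 39 coding transcripts with a complete 3' UTR, and CTNNA1 carries TCACTCA in 5 of 5. The 3' UTRs of CTNND1 (3238 bases) and CTNNBIP1 (2442 bases) hold none of these sequences, and GATCATC is in the 3' UTR of no member. Elsewhere in the transcript, TCACTCA is in 39 of 39 such coding transcripts of CTNNB1. GATCATC is there in 3 of 3 of JUP and 1 of 5 of CTNNA1. Of 12470 tested coding genes with an annotated 3' UTR, 8.06% hold ATCACTC, 12.4% TCACTCA and 6.40% GATCATC. A match is a description of the sequence, not evidence that an siRNA bound there.

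Of the 5 members tested, CTNNB1 and CTNNA1 fell, JUP rose, and CTNND1 and CTNNBIP1 did not reach the threshold, an adjusted p under 0.05 by the quasi-likelihood test of edgeR. Across all 16341 genes tested 10.5% passed, 4.64% higher and 5.82% lower, and the members were chosen with these results known. In CPM (reads scaled to library size) the groups did not overlap for any of the 5 tested members, as was the case for 45.9% of all genes tested. The median log2 fold change of all genes tested was 0.005, and their median absolute log2 fold change was 0.198.

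**Figure D1:**
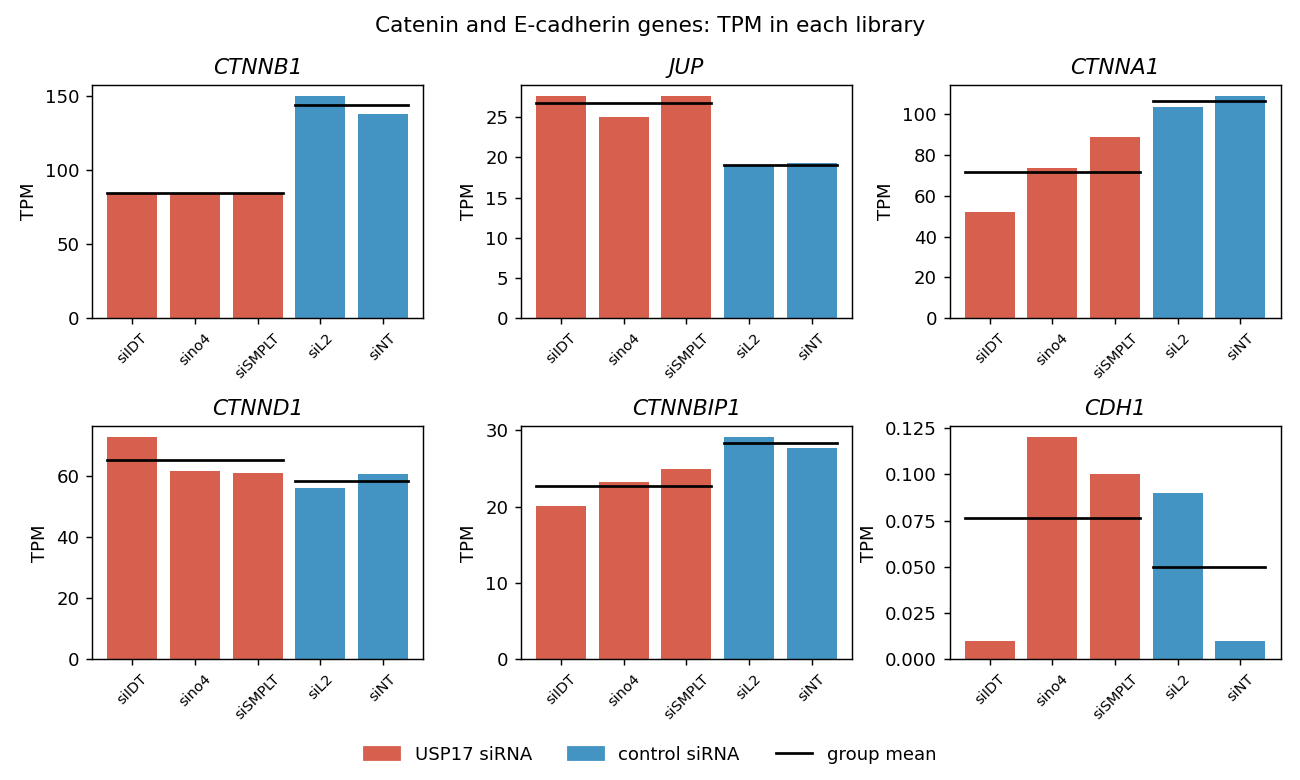
TPM of the 6 genes in each library (bars) with group means (lines), USP17 siRNA in red and control siRNA in blue, each panel on its own axis from 0. CTNNB1 is at 84.3 to 84.8 TPM in the USP17 siRNA libraries and at 138 to 150 TPM in the control siRNA libraries, while CDH1 is at 0.12 TPM or less in every library.

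CTNNB1 (chromosome 3, 41194741 to 41260096, plus strand, GRCh38) encodes beta-catenin, which serves both the junction and the Wnt pathway. Its level was 84.32, 84.81 and 84.39 TPM in siIDT, sino4 and siSMPLT and 150.12 and 138.27 TPM in siL2 and siNT. The 3 USP17 siRNA libraries lay closer together than the 2 controls did, and all 3 were below both controls. In read counts it had 6463, 6467 and 6413 reads with USP17 siRNA against 12163 and 11524 with control siRNA. Its fold change was 0.586, a log2 fold change of -0.77 ± 0.07 (SE; adjusted p = 0.00215, edgeR's quasi-likelihood test), and it ranked number 14 of 16341 genes by p. The log2 CPM difference of the 3 USP17 siRNA libraries was -0.84 to -0.82 from siL2 alone and -0.72 to -0.70 from siNT alone. The mean transcript length RSEM assigned to the gene, which follows the mix of isoforms, was 3405 to 3433 bases with USP17 siRNA and 3391 to 3402 bases with control siRNA. CTNNB1 overlaps ULK4 on the opposite strand, and at most 0.866% of the reads at the gene lay on that strand.

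JUP (chromosome 17, 41754604 to 41786931, minus strand) encodes plakoglobin, the closest relative of beta-catenin, which can take its place on the cadherin tail and also links desmosomal cadherins to desmoplakin. It moved the other way from CTNNB1 in all 3 USP17 siRNA libraries. It had 56.05, 53.09 and 56.90 CPM in siIDT, sino4 and siSMPLT and 40.34 and 41.08 CPM in siL2 and siNT, or 55.4 ± 1.999 CPM (SD, n = 3) against 40.7 ± 0.523 CPM (SD, n = 2). The log2 fold change was 0.44 ± 0.08 (SE; adjusted p = 0.0154, edgeR's quasi-likelihood test). With siIDT left out the log2 fold change was 0.44 and the call was lost (adjusted p = 0.0636, edgeR). It was likewise lost with sino4 left out, at 0.47 (adjusted p = 0.0827, edgeR).

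With the fall of CTNNB1 and the rise of JUP, plakoglobin transcripts made up a larger part of the pool that can bind a cadherin tail through this site. JUP was 24.7%, 22.7% and 24.7% of the summed CTNNB1 and JUP TPM in siIDT, sino4 and siSMPLT and 11.2% and 12.2% in siL2 and siNT. The sum was nonetheless lower with USP17 siRNA, at 111.9, 109.8 and 112.0 TPM, than with control siRNA, at 169.0 and 157.5 TPM. These are levels of RNA, and protein was not measured. Both ratios rest on the libraries already tested for the single genes and were given no test of their own.

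**Figure D2:**
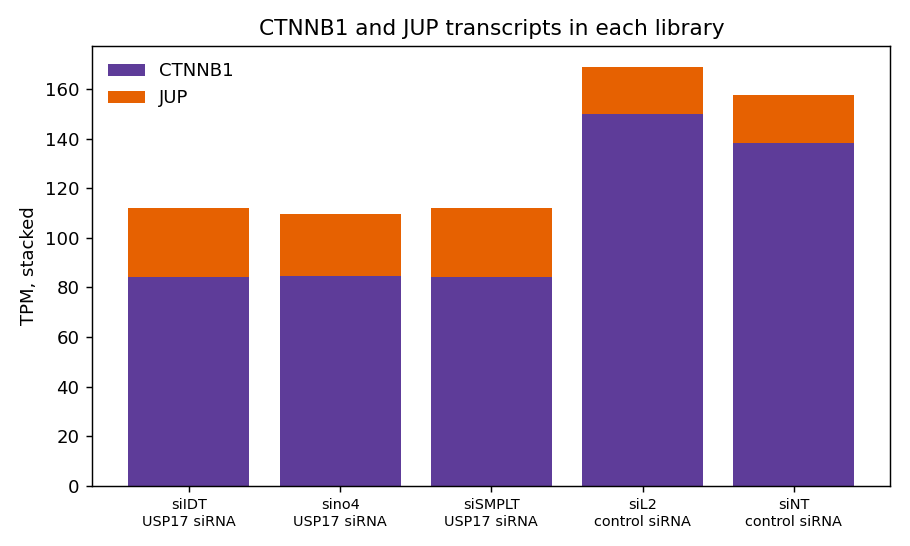
Stacked TPM of CTNNB1 (purple) and JUP (orange) in each library, with the USP17 siRNA libraries left of the control siRNA libraries. The stack is 109.8 to 112.0 TPM high with USP17 siRNA and 157.5 to 169.0 TPM high with control siRNA, while the JUP segment is taller with USP17 siRNA.

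CTNNA1 (chromosome 5, 138610967 to 138935034, plus strand) encodes alpha-catenin, the link from beta-catenin or plakoglobin to actin. It fell by unequal amounts with the 3 USP17 siRNAs. Its level was 52.19, 73.50 and 88.62 TPM in siIDT, sino4 and siSMPLT and 103.53 and 108.82 TPM in siL2 and siNT, so siIDT was lowest and siSMPLT came nearest to the controls. In CPM the USP17 siRNA libraries stood at 122.9, 172.4 and 197.5, with an SD of 38, against an SD of 1.55 for CTNNB1 in the same libraries. The log2 CPM difference from the control mean was -1.04, -0.56 and -0.36 in siIDT, sino4 and siSMPLT. The mean over the group was 164.3 ± 38 CPM (SD, n = 3) with USP17 siRNA and 253.4 ± 6.70 CPM (SD, n = 2) with control siRNA, a log2 fold change of -0.63 ± 0.16 (SE; adjusted p = 0.0472, edgeR's quasi-likelihood test). This call was near the threshold. It was lost without siIDT (log2 fold change -0.45; adjusted p = 0.0589, edgeR), sino4 (0.137), siL2 (0.0586) or siNT (0.0751), and with RSEM counts (0.0623). Groups did not overlap on either scale.

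The medians of the carriers of TCACTCA, the sequence that CTNNA1 holds at 2 places, had the same order over the 3 USP17 siRNAs. The 1544 tested carriers had a median log2 CPM difference from the control mean of -0.113, -0.065 and -0.041 in siIDT, sino4 and siSMPLT. The 1005 carriers of ATCACTC, which CTNNB1 holds, had medians of -0.142, -0.121 and -0.082. These medians had that order too, but a gene that holds both motifs counts in both sets, so the medians do not separate the motifs. CTNNB1 itself was nearly level, at -0.783, -0.764 and -0.763 from the control mean in siIDT, sino4 and siSMPLT. The 8334 genes without TCACTC had medians of 0.018, 0.009 and -0.006. Between the 2 controls, siL2 minus siNT, the medians were -0.045 for TCACTCA carriers, -0.048 for ATCACTC carriers and -0.008 for genes without TCACTC, so the shift of TCACTCA carriers in siSMPLT was no larger than that between the controls. Of ATCACTC carriers 18.2% passed the test as lower, and of TCACTCA carriers 12.9%. The share was 9.1% of genes with TCACTC in neither 7-base form and 5.04% of genes without TCACTC. These sets were not matched for 3' UTR length. The 798 carriers of GATCATC, which no member holds in its 3' UTR, went the other way, with a median log2 fold change of 0.091, 72 of them higher and 29 (3.63%) lower. Their median was -0.202 in siL2 minus siNT. These sequences were chosen on these libraries, so the shifts are descriptions, and their part in the levels of CTNNB1 and CTNNA1 was not tested. JUP holds the 6 shared bases alone, and the 2056 genes with TCACTC in neither 7-base form had a median log2 fold change of -0.014.

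**Figure D3:**
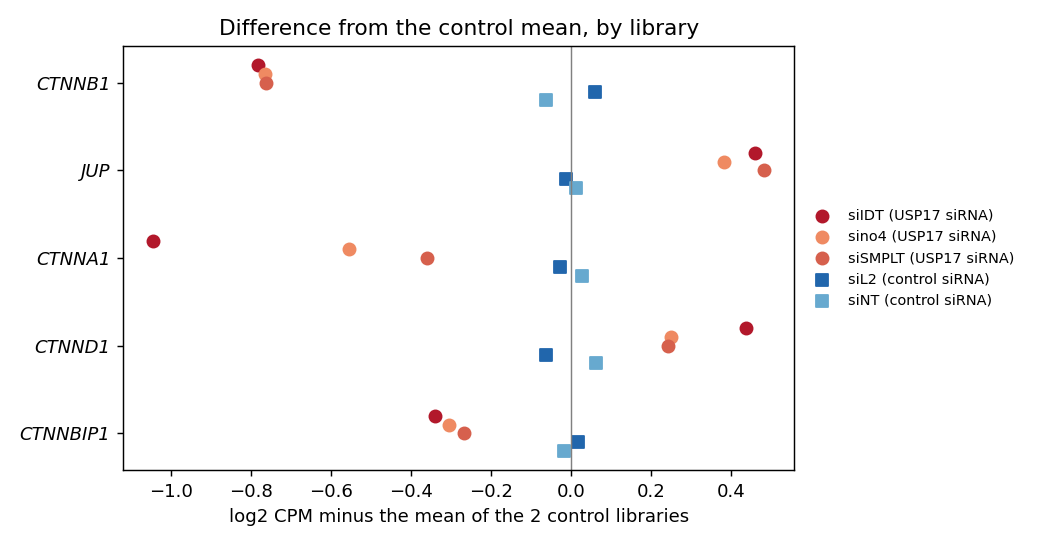
Difference in log2 CPM of each library from the mean of the control libraries, for the 5 tested genes, with USP17 siRNA libraries as circles and control siRNA libraries as squares. The circles of CTNNB1 lie together between -0.78 and -0.76, while those of CTNNA1 spread from -1.04 to -0.36.

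CTNND1 (chromosome 11, 57753243 to 57819546, plus strand) encodes p120-catenin, which stabilises cadherins at the membrane. In the annotation it shares its locus and strand with TMX2-CTNND1 and AP001931.1, and the deposited tables put reads that fit more than 1 gene in an ambiguous row of their own, outside the gene's count. It had 427, 370 and 365 reads in siIDT, sino4 and siSMPLT and 316 and 355 in siL2 and siNT. RSEM, which shares such reads out, gave 7130, 6625 and 6269 expected counts with USP17 siRNA and 6208 and 6212 with control siRNA, so the read counts held only a small part of the gene's signal. RSEM counts exceeded read counts by 16.7 to 19.6 times for CTNND1, and were 0.918 to 0.993 times the read counts for CTNNB1, JUP, CTNNA1 and CTNNBIP1. In TPM the gene stood at 72.83, 61.91 and 61.12 with USP17 siRNA and 56.23 and 60.79 with control siRNA, so siNT lay just under sino4 and siSMPLT. On reads the log2 fold change was 0.31 ± 0.12 (SE; adjusted p = 0.127), and on RSEM counts 0.21 ± 0.07 (SE; adjusted p = 0.107), both by edgeR's quasi-likelihood test, and neither passed. With RSEM counts 9.31% of 16747 genes tested passed. RSEM's own posterior SD of the count was 125 to 161 with USP17 siRNA and 101 to 195 with control siRNA, so how reads are shared with the overlapping genes adds an error of that size.

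**Figure D4:**
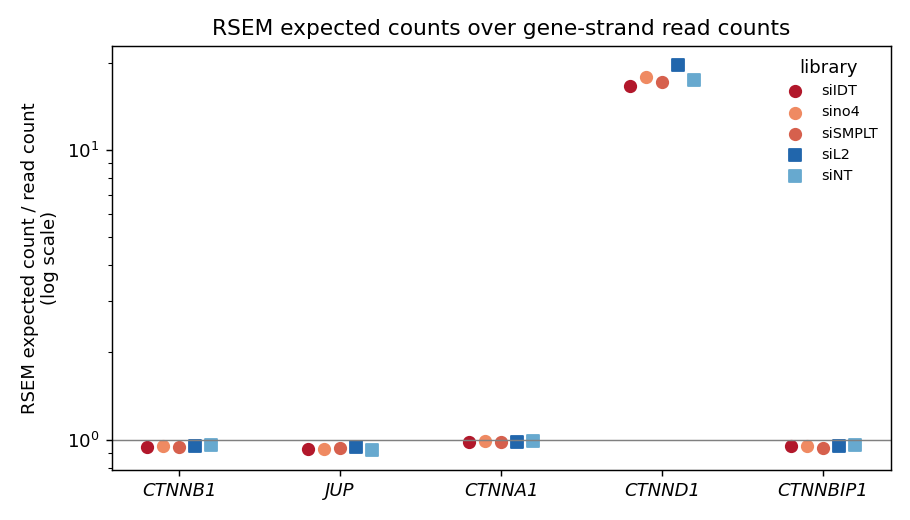
RSEM expected count divided by the gene-strand read count, on a log axis, for the 5 tested genes in each library. CTNND1 lies between 16.7 and 19.6 in all 5 libraries and the other 4 genes between 0.918 and 0.993.

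CDH1 (chromosome 16, 68737225 to 68835548, plus strand) encodes E-cadherin, the main cadherin of adherens junctions in gut epithelium. It was at or near 0 in these cells whatever the siRNA. It had 1, 4 and 3 reads in siIDT, sino4 and siSMPLT and 6 and 1 in siL2 and siNT, or 0.01 to 0.12 TPM and 0.01 to 0.09 TPM. A count of 0 would allow up to 3 reads, or 0.0849 to 0.0938 CPM at these depths, for counting error only. CDH1 was therefore not tested and no fold change is given. Its catenin partners were expressed at 19.1 to 144 TPM as control siRNA means, so the RNAs for the cytoplasmic part of the complex were present without that for its E-cadherin partner.

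CTNNBIP1 (chromosome 1, 9848276 to 9910336, minus strand) encodes ICAT, which keeps TCF factors from beta-catenin. It was lower in every USP17 siRNA library and lay just outside the threshold. It had 25.42, 26.08 and 26.76 CPM in siIDT, sino4 and siSMPLT and 32.60 and 31.85 CPM in siL2 and siNT, a log2 fold change of -0.31 ± 0.08 (SE; adjusted p = 0.0507, edgeR's quasi-likelihood test). The adjusted p was 0.0486 with DESeq2's size factors in edgeR's test, 0.0239 with DESeq2's Wald test and 0.0477 with RSEM counts in edgeR's test. It did not pass with limma-voom (0.0531), nor in edgeR's test without a filter (0.101) or with counts without regard to strand (0.0533). Nor did it pass in edgeR's test without siIDT (0.163), sino4 (0.213) or siSMPLT (0.0958). The log2 fold change was -0.29 without siL2 and -0.32 without siNT. In TPM it stood at 20.04, 23.19 and 24.89 with USP17 siRNA and 29.06 and 27.67 with control siRNA. RSEM's mean transcript length was 1893 bases in siIDT and 1582 to 1699 bases in the other 4 libraries, and a longer length gives a lower TPM for the same reads. The gene overlaps AL357140.1 and AL357140.5 on the opposite strand, where at most 1.29% of the reads at the gene lay. CTNNB1 exceeded CTNNBIP1 by 4.21, 3.66 and 3.39 times in TPM in siIDT, sino4 and siSMPLT and by 5.17 and 5 times in siL2 and siNT.

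The order of the members by TPM differed between the groups. With control siRNA it was CTNNB1, CTNNA1, CTNND1, CTNNBIP1, JUP and CDH1 in both libraries, and no neighbours in that order overlapped. With USP17 siRNA the range of CTNNB1 (84.3 to 84.8 TPM) lay above that of CTNND1 (61.1 to 72.8 TPM). CTNNA1 (52.2 to 88.6 TPM) could not be placed, since its range spanned both of the others. CTNND1 exceeded CTNNA1 in siIDT, and CTNNA1 exceeded CTNNB1 in siSMPLT. JUP lay above CTNNBIP1 in each of the 3 USP17 siRNA libraries and below it in both controls. CTNNA1 amounted to 0.466, 0.670 and 0.791 of the summed CTNNB1 and JUP TPM in siIDT, sino4 and siSMPLT and to 0.613 and 0.691 in siL2 and siNT, so this proportion overlapped between the groups. CTNND1 amounted to 0.546 to 0.651 of that sum with USP17 siRNA and to 0.333 to 0.386 with control siRNA.

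The genes whose log2 CPM, centred on its mean, came closest to each member's over the 5 libraries were looked up among 8360 tested genes (8361 for CTNND1) at or above 4 on the log2 CPM scale. For CTNNB1 they were PAFAH1B1, RAB27A and MED4, with root mean square differences of 0.017, 0.034 and 0.057 on the log2 scale. For CTNNA1 they were UBAC1, GABARAPL1 and UBE2D4 (0.057, 0.058 and 0.061), all of which share its order of siIDT lowest and siSMPLT highest among the USP17 siRNA libraries. For JUP they were GOLGA8A, ZNF780B and ZBTB7A (0.029, 0.031 and 0.034). LRIF1, TINF2 and OIP5-AS1 came closest to CTNND1 and CCDC59, EMC6 and PDIA6 to CTNNBIP1. UBAC1, GABARAPL1 and UBE2D4 each hold TCACTCA in the 3' UTR, PAFAH1B1 and RAB27A hold ATCACTC and TCACTCA, and MED4 holds neither. PAFAH1B1 also holds GATCATC. ZNF780B, which was higher with USP17 siRNA (log2 fold change 0.47; adjusted p = 0.0212, edgeR), holds both ATCACTC and GATCATC. Of tested coding genes with an annotated 3' UTR, 8.06% hold ATCACTC and 12.4% TCACTCA. The sequences and these nearest genes were both picked on these same libraries, so the matches are descriptions and their part in the levels was not tested.

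Other genes of cell junctions were read from 9 lists of 126 genes, all matched, of which 81 were tested. Of these 6 were higher and 9 lower, or 18.5% against 10.5% of all genes tested, and the other 66 did not pass. The lists were drawn up with earlier results of these data known. The count was 4 without siIDT and 3 without sino4, where the calls over all genes were 349 and 130 in place of 1710. Of the genes named below, ADAM15, CDH15, CLDN12, CTNNA2, DSC2, DSP, KLF5, LPP, MARVELD2, ZEB1 and ZYX lost their call in each of these fits, and CLDN11 lost its call without sino4. Among the 9 lower genes, the 3' UTRs of LPP and TCF3 hold ATCACTC and TCACTCA, and that of ZEB1 holds ATCACTC. CLDN11 holds TCACTC alone, and ADAM15, CDH15, DSP, PKP4 and ZYX hold none of these sequences. Of the 6 higher, DSC2 holds ATCACTC and TCACTCA, and CDH17, CLDN12, CTNNA2, KLF5 and MARVELD2 hold none.

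**Figure D5:**
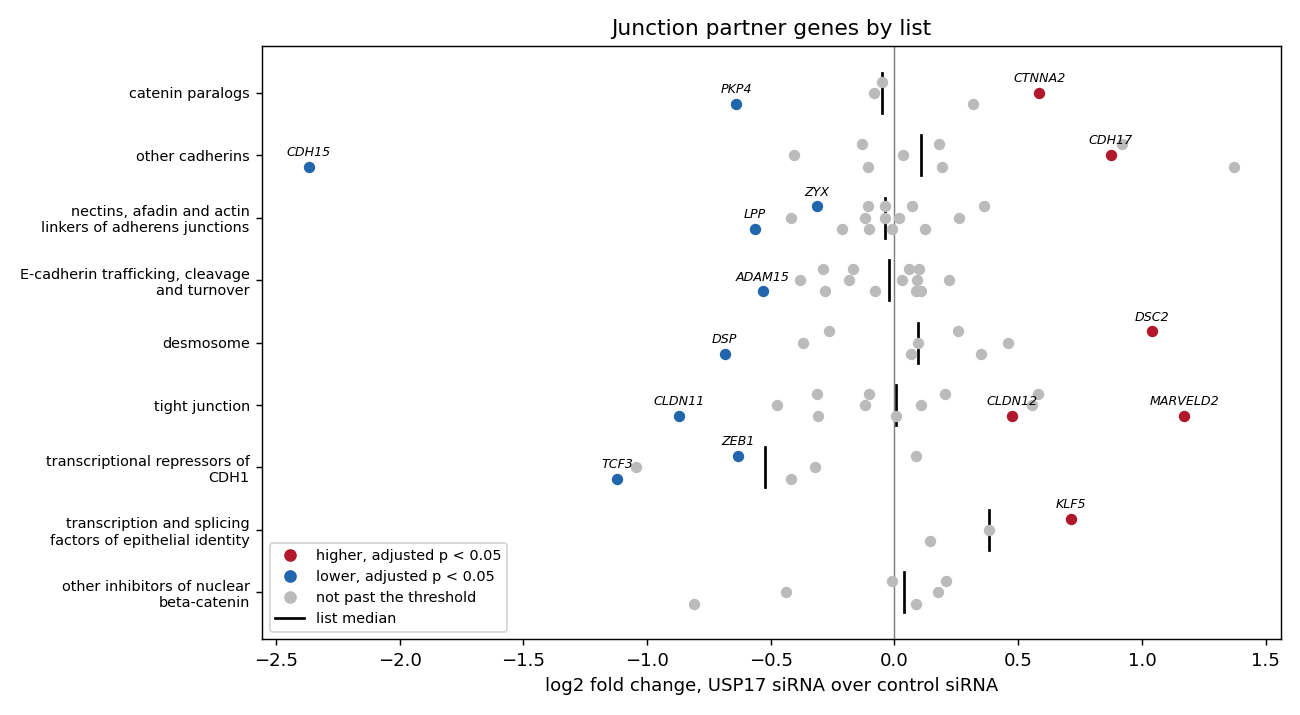
Log2 fold change (USP17 siRNA over control siRNA) of the 81 tested genes on 9 lists of junction partners, in red where higher, blue where lower at an adjusted p under 0.05 in edgeR's test and grey otherwise, with list medians as black bars. Named points are the 15 genes past the threshold, among which PKP4, TCF3 and CDH17 kept their call in every alternative tried.

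Among relatives of the catenins 1 of 5 tested genes rose and 1 fell, with a list median of -0.049. PKP4, an armadillo protein of the p120 subfamily found at junctions, fell to 207.1, 209.1 and 226.4 CPM in siIDT, sino4 and siSMPLT, against 313.8 and 354.0 CPM in siL2 and siNT (log2 fold change -0.64 ± 0.08, SE; adjusted p = 0.00499, edgeR). Its fall had a size similar to that of CTNNA1 with less spread between the siRNAs (SD 10.6 CPM), and its 3' UTR holds none of the sequences shown above. CTNNA2, the neuronal alpha-catenin, rose, with a log2 fold change of 0.59 ± 0.14 (SE; adjusted p = 0.0383, edgeR), but stood at 2.87 to 4.90 TPM over the 5 libraries. That is far below CTNNA1, and its call was lost in 5 of 11 alternatives. CTNNAL1, or alpha-catulin, had the highest mean of the relatives over the 5 libraries, 107 TPM against 104 TPM for PKP4. In siL2 and siNT PKP4 stood higher, at 127.77 and 133.47 TPM against 102.44 and 115.63 TPM. The log2 fold change of CTNNAL1 was -0.08, within the spread between libraries (adjusted p = 0.598, edgeR). ARVCF had a mean of 7.23 TPM and a log2 fold change of -0.05 (adjusted p = 0.788, edgeR).

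Of 22 other cadherins 10 were tested, 1 rose and 1 fell, and the median log2 fold change was 0.108. CDH17, the liver-intestine cadherin, which adheres without binding catenins, had the highest mean TPM of them over the 5 libraries. It rose to 50.05, 51.98 and 47.68 CPM in siIDT, sino4 and siSMPLT, against 27.11 and 27.29 CPM in siL2 and siNT (log2 fold change 0.88 ± 0.08, SE; adjusted p = 0.00285, edgeR). CDH12, which does not overlap between the groups, came next by that mean, with 12.4 to 13.3 TPM over the 5 libraries and a log2 fold change of -0.13 (adjusted p = 0.324, edgeR). In siL2 and siNT CDH12 stood above CDH17, at 13.32 and 13.19 TPM against 10.42 and 10.55 TPM. CDH2, or N-cadherin, stood at 3.79, 1.61 and 1.88 CPM with USP17 siRNA and 1.20 and 0.679 CPM with control siRNA, which did not pass (adjusted p = 0.075, edgeR). CDH15 passed as lower (adjusted p = 0.0432, edgeR) at 0.22 TPM or less in every library. It had 0.031, 0.031 and 0.156 CPM in siIDT, sino4 and siSMPLT and 0.409 and 0.368 CPM in siL2 and siNT. The filter on low counts therefore kept it through the control siRNA libraries alone, and it is among the 9 lower genes of the lists. The tested cadherins that were measured above 1 TPM on average were CDH17, CDH12, CDH24 and CDH23.

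Among nectins, afadin and the actin linkers of adherens junctions 2 of 15 tested genes fell and none rose (median -0.038). LPP, a zyxin relative at sites of adhesion, had 132.4, 136.5 and 145.7 CPM in siIDT, sino4 and siSMPLT and 220.3 and 188.8 CPM in siL2 and siNT, a log2 fold change of -0.57 ± 0.09 (SE; adjusted p = 0.0105, edgeR). LPP also holds ATCACTC and TCACTCA. ZYX (zyxin) fell by 0.31 on the log2 scale (adjusted p = 0.0492, edgeR), a call lost in 6 of 11 alternatives. VCL (vinculin), which binds alpha-catenin under tension, had a log2 fold change of -0.11 and AFDN (afadin) of -0.04, neither past the threshold. Of 14 genes for the trafficking, cleavage and turnover of E-cadherin, ADAM15, a membrane metalloprotease, fell by 0.53 on the log2 scale (adjusted p = 0.0205, edgeR) and the other 13 did not pass.

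Of 9 tested desmosome genes DSP fell and DSC2 rose. DSP encodes desmoplakin, the partner of plakoglobin that anchors keratin filaments, and it had 144.4, 158.7 and 191.0 CPM in siIDT, sino4 and siSMPLT against 228.0 and 302.2 CPM in siL2 and siNT (log2 fold change -0.69 ± 0.14, SE; adjusted p = 0.0221, edgeR). JUP and DSP, which meet in the desmosome, therefore changed in opposite directions. The desmosomal cadherin DSG2 was the most abundant gene of the list, at 175 to 208 TPM, with a log2 fold change of 0.10 that did not pass (adjusted p = 0.427, edgeR), and DSC2, with a log2 fold change of 1.04 (adjusted p = 0.044, edgeR), was at 0.41 TPM or less. The 3' UTR of DSC2 holds ATCACTC and TCACTCA, and its call was lost in 8 of 11 alternatives. Among 13 tested tight junction genes CLDN11 fell by 0.87 on the log2 scale (adjusted p = 0.0108), CLDN12 rose by 0.48 (0.0254), and MARVELD2, at 0.60 TPM or less, rose by 1.17 (0.0415, all by edgeR). The read counts of OCLN and F11R held less than RSEM assigned to them, by 2.69 and 2.09 times, and neither passed with RSEM counts (adjusted p = 0.929 and 0.0652, edgeR).

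Repressors of CDH1 transcription had 2 of 6 tested genes lower and none higher, with a median of -0.525. TCF3, which encodes the E2A proteins E12 and E47, fell to 63.88, 73.75 and 80.85 CPM in siIDT, sino4 and siSMPLT, against 156.0 and 160.5 CPM in siL2 and siNT, a log2 fold change of -1.12 ± 0.10 (SE; adjusted p = 0.00218, edgeR). It followed the same order of the USP17 siRNAs as CTNNA1, and its 3' UTR holds ATCACTC and TCACTCA. DSP, PKP4 and ADAM15 (54.00, 61.02 and 66.09 CPM) had that order too, and their 3' UTRs hold none of the sequences shown above. ZYX, which also holds none, did not have it, nor did ZEB1 (28.70, 28.96 and 25.64 CPM). ZEB1 fell by 0.63 (adjusted p = 0.031, edgeR), with controls of 35.37 and 50.79 CPM far apart, and holds ATCACTC. Without siNT its log2 fold change was -0.35 (adjusted p = 0.0518, edgeR), and the call was lost in 4 of 11 alternatives. CDH1 stayed at or near 0 in the same libraries. Of 12 factors of epithelial identity only 3 could be tested, of which KLF5, a crypt transcription factor, rose by 0.72 (adjusted p = 0.0147, edgeR), and GRHL2, OVOL1, ESRP2, ELF3 and HNF4A had mean levels of 0.13 TPM or less. None of 6 tested inhibitors of nuclear beta-catenin other than ICAT passed (median 0.039), the most abundant being CHD8, with a log2 fold change of 0.18 (adjusted p = 0.196, edgeR). CHD8 passed without siL2, at 0.29 (adjusted p = 0.0278, edgeR), and was at 0.07 without siNT (adjusted p = 0.536, edgeR).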

How the data were processed

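Poly(A) RNA of 5 libraries was measured. Per the submitters' processing notes, bcl2fastq 2.20, STAR 2.7.1a on GRCh38 and RSEM 1.3.2 were used; annotation release and strand setting are not stated in what was used here. The deposited read tables hold whole-number counts per gene; the own-strand column, 18.7 to 19.9 times the opposite one, was used. Reads not counted for a single gene, 22.8% to 24.4%, which include ambiguous reads and reads on no gene's own strand, were left out. The deposited RSEM tables hold expected counts, TPM computed by the authors, and mean transcript lengths.

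Counts were kept by filterByExpr (minimum 10 per library, 15 in total), scaled by TMM and compared over all genes with the quasi-likelihood F test of edgeR 4.0.16 in R 4.3.3, with Benjamini-Hochberg adjustment at 0.05. The test was checked on simulated data. Alternatives used DESeq2 1.42.0, limma 3.58.1, RSEM counts rounded to whole numbers and other filters. Log2 CPM has a prior count of 2. 3' UTRs were the longest per gene in GENCODE release 29, read in Python 3.11.15.

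Genes named were the members, up to 8 genes past the threshold per list or else its most abundant gene, catenin relatives of at least 1 TPM and the 3 nearest patterns per member; others were chosen after their values were seen. Members and lists were chosen with earlier results of these data known. Replicate numbers follow sample order and pair nothing.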

Additional observations from a re-analysis of the deposited data

How the results depend on the processing

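CTNNB1 kept its direction and call in all 11 alternatives (with 1 library removed, -0.83 to -0.71 on the log2 scale). Leaving out 1 library gave 0.42 to 0.47 for JUP, -0.45 to -0.78 for CTNNA1, 0.25 to 0.38 for CTNND1 and -0.29 to -0.33 for CTNNBIP1. CTNNA1 was at -0.63 with RSEM counts and did not pass. CTNNBIP1 passed at -0.31 with DESeq2's size factors and with its Wald test and at -0.32 with RSEM counts. CTNNBIP1 did not pass with limma-voom, without a filter, with counts without regard to strand, or with any of the USP17 siRNA libraries left out. Genes called numbered 130 to 2633 when 1 library was left out, and list genes called 3 to 20, the lowest without sino4. Of the 15 list genes called, 3 kept their call in every alternative and none changed sign; 11 lost it without siIDT and 12 without sino4. CTNNAL1, not called, ranged from -0.17 to 0.008 with 1 library left out, and was above 0 without siNT. CDH1 entered the test only without a filter (log2 fold change -0.276, adjusted p = 0.913, edgeR). Fits with 1 library removed rest on fewer libraries; otherwise the cause was not tested. Where a lone control remained, it was assumed to vary like the USP17 siRNA libraries. Depth limits CDH1 and the other genes at a few reads, and overlap with other genes limits CTNND1. No paired analysis was possible because the labels give no replicate numbers.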
